A study of Homo sapiens with 24 samples.

Results

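The alpha and beta tubulins are the subunits of microtubules, and their messenger RNAs were followed here through a bromouridine pulse-chase in human U2OS osteosarcoma cells. The set was chosen by gene symbol and holds 10 genes of the 25341 in the table: the alpha tubulins TUBA1A, TUBA1B, TUBA1C and TUBA4A, and the beta tubulins TUBB, TUBB2A, TUBB2B, TUBB3, TUBB4B and TUBB6. The cells were a custom double stable line with a tetracycline-off switch for TOB2 S254D, a mutant of the deadenylation-linked protein TOB2 with an aspartate in place of a phosphorylated serine. In the uninduced arm doxycycline was in the medium and kept the transgene off, and in the induced arm doxycycline was left out, so that the drug and the transgene changed together in every comparison of the arms. Cells were sampled after 0, 0.5, 1, 2, 4 and 6 h of chase, and cytoplasmic RNA that carried bromouridine was pulled down with an antibody before sequencing. The 24 libraries formed 12 groups of arm and time with 2 replicates each. Separate cultures for the 2 replicates are not stated, so the p-values measure the spread between these libraries, which may be technical. The labels give no answer on whether the line was 1 clone.

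A microtubule is built from dimers of 1 alpha and 1 beta tubulin, and human cells carry several genes for each, called isotypes, whose proteins differ mainly in their acidic carboxy-terminal tails. TUBA1B, TUBA1C, TUBB and TUBB4B are broadly expressed isotypes, TUBA1A and TUBB2B are known from the developing brain, TUBB3 is used as a marker of neurons and is also found in tumour cells, and TUBB1 is the isotype of platelets. Tubulin messenger RNAs are a textbook case of controlled decay. When free tubulin dimers build up, the factor TTC5 recognises the first amino acids of a nascent tubulin chain on the ribosome and the tubulin messenger RNA is degraded, with SCAPER as a linking protein. TOB2 belongs to a family that brings the CCR4-NOT deadenylase to messenger RNA, and the study followed RNA decay after the S254D mutant was expressed.

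For a pair of genes with contrasting courses over the chase, the abundant alpha tubulin TUBA1B, whose share of the labelled RNA rose, and the beta tubulin TUBB4B, whose share of beta tubulin RNA was lower at the end than at the start, the sequences around the gene starts are given from RefSeq (250 bases before to 50 bases after the start, build GRCh38.p14, whereas the submitters' notes name hg19). The pair was chosen after its values were seen. TUBA1B lies on chr12:49131346-49131645 on the minus strand and TUBB4B on chr9:137241037-137241336 on the plus strand, and both are printed 5′ to 3′ in the direction of the gene, with capitals at each match to GGGCGG in TUBA1B and to CCAAT in TUBB4B, on either strand.
TUBA1B: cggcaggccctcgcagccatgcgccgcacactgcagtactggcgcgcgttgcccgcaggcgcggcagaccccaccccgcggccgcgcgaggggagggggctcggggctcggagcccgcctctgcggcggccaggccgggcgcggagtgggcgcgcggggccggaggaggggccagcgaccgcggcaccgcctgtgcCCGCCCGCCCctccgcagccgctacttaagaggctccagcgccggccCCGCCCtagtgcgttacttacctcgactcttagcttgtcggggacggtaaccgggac
TUBB4B: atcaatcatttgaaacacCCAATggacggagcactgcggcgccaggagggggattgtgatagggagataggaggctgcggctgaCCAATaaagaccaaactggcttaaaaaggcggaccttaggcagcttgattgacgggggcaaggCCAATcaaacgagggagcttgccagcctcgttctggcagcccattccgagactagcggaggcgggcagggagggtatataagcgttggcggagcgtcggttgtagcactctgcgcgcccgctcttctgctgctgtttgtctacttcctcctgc
The TUBA1B window held GGGCGG 3 times, all on the reverse strand, beginning at -54, -50 and -7 from the start, of which the pair at -54 and -50 overlap, and it held no CCAAT. The TUBB4B window held CCAAT 3 times on the forward strand, beginning at -232, -166 and -103, and no GGGCGG. The motif CCAAT, the core of the CCAAT box, was present in 34.6% of the 35116 RefSeq windows of this kind, and GGGCGG, the core of a GC box, in 45.0%. All 10 members were matched, with 15 windows between them, and 9 windows from 7 members held CCAAT and 9 windows from 8 members held GGGCGG. These letters describe the promoters and were not tested against the RNA values.

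Values are TPM, the usual length-corrected abundance in which every library adds up to the same total, so that levels can be compared between genes but only as shares of the labelled RNA of a library. A loss shared by all RNAs cannot be seen, and a gene that decays more slowly than the rest rises. A rise alone does not show slower decay, and what made a share of this cytoplasmic RNA rise was not tested. The sequencing depth behind the values was unknown. Tests were made with limma on log2(TPM + 1) over the 13416 genes that averaged 1 TPM or more, with Benjamini-Hochberg adjustment over those genes and a threshold of 0.05. Small fold changes of low genes are understated on that scale. TOB2 checked the labels: at 0 h it was at 257 ± 15.2 TPM without and 585 ± 96.8 TPM with induction (SD, n = 2 each), and the arms did not overlap over the whole chase, with 92.3 to 267 TPM and 499 to 725 TPM. The noncoding RNAs RMRP, MIR6723 and RPPH1, together took 22.4 ± 0.350% of the TPM in uninduced cells at 0 h and 8.11 ± 0.479% at 6 h (SD, n = 2), a shift that moves the TPM of every other gene. They took 27.5% in induced replicate 2 at both 0 h and 0.5 h, against 21.2% and 19.5% in replicate 1, so these 2 libraries stood apart, and the comparisons at 0 h and 0.5 h and the slope differences are also given without them. Of 10 osteoblast-lineage markers 3 reached a mean of 1 TPM (COL1A1 at 12.5, RUNX2 at 4.13 and BGLAP at 1.72 TPM), while IBSP was listed at 0 and ALPL, SP7, SPP1 and SPARC stayed under 1 TPM, so the bone origin of the line showed in few of its defining markers. Of markers of other cells, 1 of 7 epithelial (CLDN4), 3 of 7 leukocyte (LYZ, CD68 and CD14, with PTPRC at 0.149 TPM) and 0 of 5 ciliated or sperm cell markers reached a mean of 1 TPM. The summed leukocyte markers were at 21.0 to 52.5 TPM in uninduced and 24.5 to 72.1 TPM in induced cells, and the part of these markers in the tubulin values was not tested.

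Tubulin messenger RNAs were among the abundant labelled RNAs. The 10 members together held between 7136 and 14067 TPM in a library, and 9 of the 10 passed the filter on low values. TUBA1B was the highest, with a median of 3302 TPM over the 24 libraries (2224 to 5005). TUBB had a median of 2799 TPM (2060 to 3902) and TUBA1C of 2653 TPM (1808 to 3859), ranges that overlap since all 3 rose over the chase. Within a library the order was steadier, with TUBA1B above TUBB and above TUBA1C in 24 of 24 libraries and TUBB above TUBA1C in 23. TUBB4B followed at 808 TPM (642 to 904) and TUBA4A at 206 TPM (136 to 281). TUBB6 at 99.7 TPM (72.6 to 139), TUBB3 at 88.1 TPM (60.4 to 117) and TUBB2A at 74.5 TPM (60.9 to 98.4) overlapped one another, with TUBB6 above TUBB3 in 21 libraries and above TUBB2A in 23, and TUBB3 above TUBB2A in 16. TUBA1A was the lowest member that passed the filter, with a median of 25.4 TPM (11.4 to 43.0). TUBB2B was listed at 0 in 23 of 24 libraries and at 0.18 TPM in the other, induced replicate 1 at 4 h, and was not tested. TUBA1A, TUBA1B and TUBA1C are near-identical in coding sequence, as are TUBB2A and TUBB2B, and the submitters' notes name RSEM, which divides reads shared by several transcripts. How much of a value was assigned in this way is not known, so the split within the TUBA1 trio is uncertain, above all for TUBA1A, which held only 0.25% to 0.58% of alpha tubulin TPM in the 12 group means. RefSeq places other genes over TUBA4A (STK16 and TUBA4B), TUBB4B (CIMIP2A) and TUBB6 (AFG3L2), and the labels do not say whether the libraries kept the strand.

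**Figure D1:**
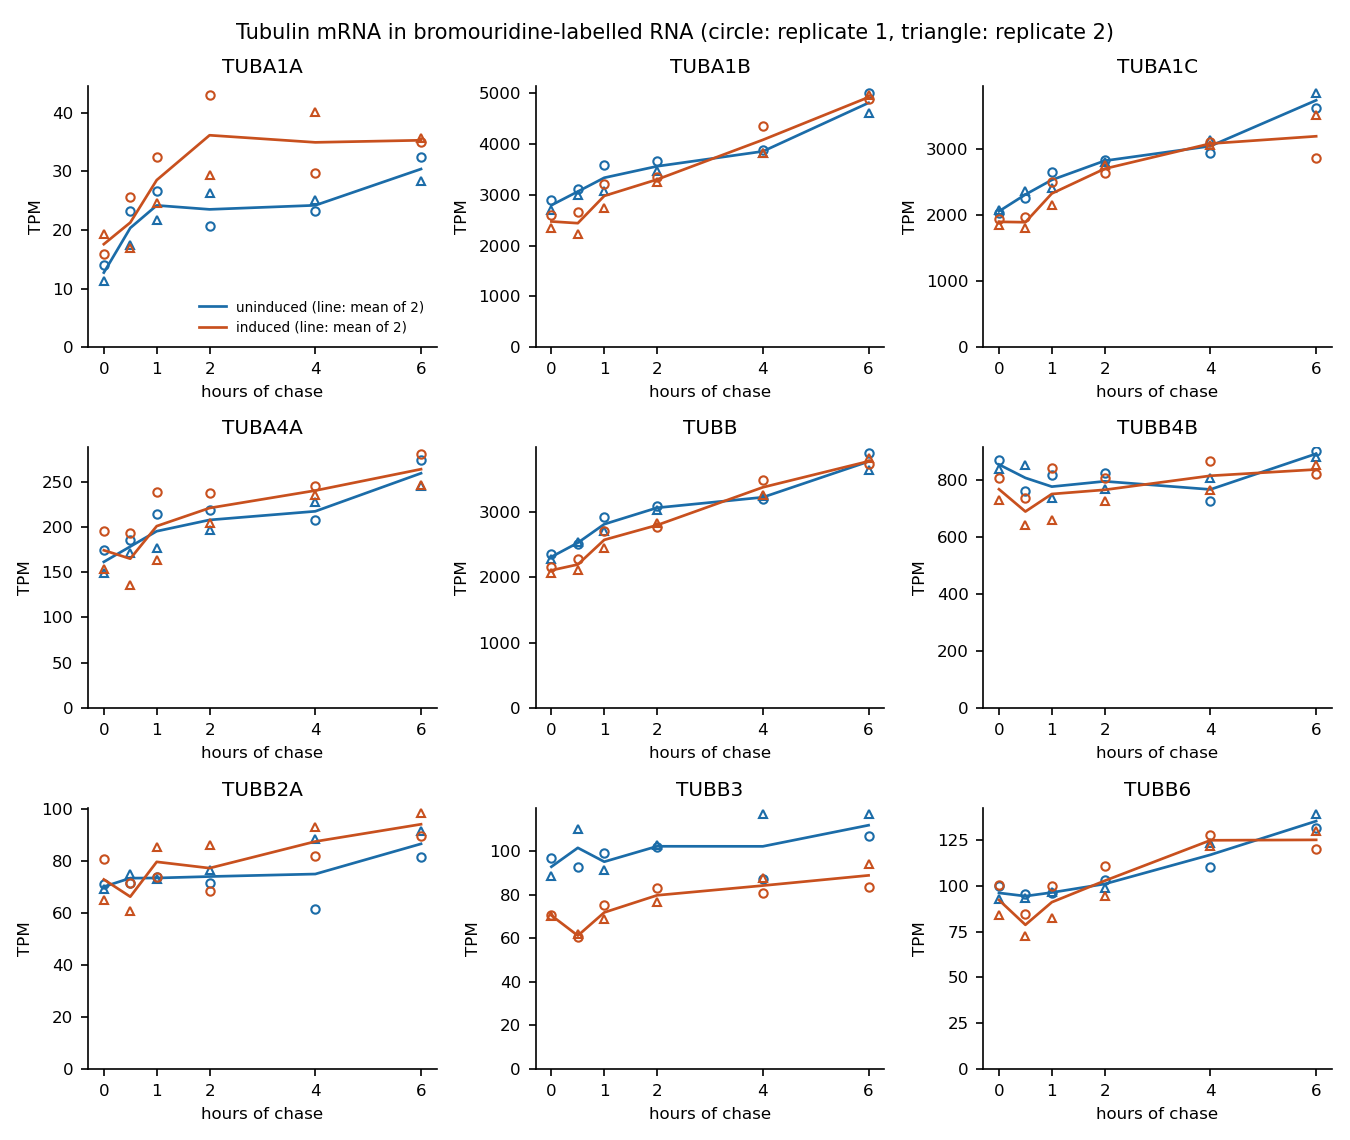
TPM of the 9 tubulin genes that passed the filter against hours of chase, 1 panel per gene, with a vertical axis from 0. Circles are replicate 1, triangles replicate 2, and lines join the means of 2 libraries. TUBA1B, TUBA1C and TUBB climbed in both arms, TUBB4B stayed between 642 and 904 TPM, and the induced TUBB3 values lay below the uninduced ones at 5 of 6 times.

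The alpha tubulins rose through the chase in both arms. Their summed level was 1.76-fold as high at 6 h as at 0 h in uninduced cells, with 5030 ± 135 and 8846 ± 134 TPM, and 1.84-fold in induced cells, with 4567 ± 277 and 8421 ± 493 TPM (SD, n = 2 each). For the 6 beta tubulins together the sums were 3428 ± 89.5 and 4999 ± 180 TPM in uninduced cells, 1.46-fold, and 3112 ± 146 and 4922 ± 104 TPM in induced cells, 1.58-fold. These sums are levels and were not tested. By the straight-line fit, which gives the change of log2(TPM + 1) per hour, 6 of the 9 members tested rose and 0 fell in uninduced cells, where 42.8% of all genes tested rose and 22.3% fell. In induced cells 8 of 9 rose and 0 fell, where 41.6% of all genes rose and 29% fell. The median slope of the members was 0.098 per hour in uninduced and 0.11 in induced cells, beside 0.039 and 0.028 over all genes.

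These directions depend in part on how a library is scaled. Among the genes called in uninduced cells, 65.8% were called higher in the deposited TPM, 48.4% after median-of-ratios scaling, 51.8% after rescaling without RMRP, MIR6723 and RPPH1 and 55.5% after rescaling over protein-coding transcripts. In induced cells the same shares were 58.9%, 49.1%, 44.7% and 47%. With quantile normalization they were 60.2% in uninduced and 59.3% in induced cells. The members called as rising in induced cells, 8 in the deposited TPM, were 6 after median-of-ratios scaling, 6 without the 3 noncoding RNAs, 5 over protein-coding transcripts and 4 with quantile normalization. Of all genes tested, 35%, 30.8%, 32.2% and 40.6% rose there. In uninduced cells the members called as rising were 6, 6, 6 and 3, beside 30.3%, 31.9%, 33.9% and 35% of all genes. There 1 member was called lower over protein-coding transcripts (TUBB4B), where 27.2% of all genes fell, and 1 with quantile normalization (TUBB3), where 23.2% fell. With quantile normalization the members' median slopes were 0.023 uninduced and 0.034 induced, close to the 0.019 and 0.026 of all genes. TUBA1B, TUBA1C and TUBB passed the threshold as rising in both arms under each of these scalings, under quantile normalization and in every other alternative that tested them. TUBA1A, TUBA4A and TUBB6 kept a positive slope in both arms throughout, but in uninduced cells their calls were lost under quantile normalization (slopes of 0.085, 0.023 and 0.0078). The induced calls of TUBA4A (0.034, adjusted p = 0.124) and TUBB6 (0.031, adjusted p = 0.124) were lost there too, and that of TUBA1A over protein-coding transcripts (0.085, adjusted p = 0.0548). With the chase to 2 h alone TUBA4A and TUBB6 were called in neither arm (adjusted p = 0.178 and 0.721 uninduced, 0.0999 and 0.193 induced), and with the chase to 4 h the uninduced call of TUBA1A was lost (adjusted p = 0.0665). TUBB2A, TUBB3 and TUBB4B had slopes near 0 whose sign in uninduced cells turned negative under each of the other scalings, except that TUBB4B stayed positive under quantile normalization.

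TUBA1B, the most abundant alpha tubulin, was in uninduced replicates 1 and 2 at 2896 and 2695 TPM at 0 h, 3123 and 3005 at 0.5 h, 3597 and 3076 at 1 h, 3663 and 3462 at 2 h, 3880 and 3831 at 4 h, and 5005 and 4619 TPM at 6 h. With induction it was at 2606 and 2343 TPM at 0 h, 2659 and 2224 at 0.5 h, 3215 and 2742 at 1 h, 3348 and 3256 at 2 h, 4349 and 3815 at 4 h, and 4881 and 4965 TPM at 6 h. Both 6 h libraries of each arm lay above all of its earlier ones, and the induced values began below the uninduced ones and met them by 4 h. The slope was 0.12 per hour in uninduced cells (SE 0.015, adjusted p = 3.76e-07) and 0.17 in induced cells (SE 0.015, adjusted p = 5.34e-10). TUBA1C, a broadly expressed alpha tubulin, rose from 2041 and 2079 TPM at 0 h to 3630 and 3859 TPM at 6 h in uninduced cells, and from 1945 and 1856 to 2875 and 3522 TPM in induced cells. Its slopes were 0.13 in each arm (SE 0.018, adjusted p = 9.30e-07 uninduced and 4.42e-07 induced). TUBA4A, a further alpha isotype, rose from 161 to 259 TPM in the group means of uninduced cells and from 174 to 264 TPM in induced cells, with slopes of 0.098 and 0.11.

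TUBB, the main beta tubulin of these cells, was in uninduced replicates 1 and 2 at 2352 and 2274 TPM at 0 h, 2517 and 2541 at 0.5 h, 2916 and 2712 at 1 h, 3097 and 3032 at 2 h, 3199 and 3251 at 4 h, and 3902 and 3642 TPM at 6 h. With induction it was at 2156 and 2060 TPM at 0 h, 2280 and 2114 at 0.5 h, 2703 and 2445 at 1 h, 2772 and 2826 at 2 h, 3495 and 3260 at 4 h, and 3734 and 3819 TPM at 6 h. Each arm's 2 libraries at 4 h lay above its 2 libraries at 2 h, and those at 6 h above those at 4 h. The slope was 0.10 in uninduced cells (SE 0.013, adjusted p = 2.29e-07) and 0.14 in induced cells (SE 0.013, adjusted p = 1.29e-09). TUBB6, a less abundant beta isotype, also rose in both arms, from 96.1 to 135 TPM and from 92.2 to 125 TPM in the group means, with slopes of 0.087 and 0.10.

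The remaining beta tubulins had smaller slopes. TUBB2A had slopes of 0.038 in uninduced (adjusted p = 0.0992) and 0.071 in induced cells (adjusted p = 0.00324), and TUBB3 of 0.034 (adjusted p = 0.0936) and 0.072 (adjusted p = 0.000877). Each of the 4 other scalings ended both induced calls, with slopes of 0.0027 to 0.034 for TUBB2A (adjusted p from 0.197 to 0.924) and of 0.0042 to 0.036 for TUBB3 (adjusted p from 0.102 to 0.859). Without replicate 2 at all times, the induced calls of TUBB2A (adjusted p = 0.194) and TUBB3 (adjusted p = 0.0887) were lost, as were those of TUBA1A in both arms (adjusted p = 0.150 uninduced and 0.165 induced). TUBB4B, a broadly expressed isotype also used in cilia, had the smallest slope of the members tested in each arm, 0.011 in uninduced cells (95% interval -0.023 to 0.045, adjusted p = 0.560) and 0.035 in induced cells (0.0014 to 0.069, adjusted p = 0.0582). Its uninduced replicates 1 and 2 were at 872 and 840 TPM at 0 h, 764 and 853 at 0.5 h, 818 and 738 at 1 h, 825 and 769 at 2 h, 729 and 807 at 4 h, and 904 and 883 TPM at 6 h. Its induced replicates were at 808 and 730 TPM at 0 h, 739 and 642 at 0.5 h, 843 and 661 at 1 h, 807 and 726 at 2 h, 867 and 765 at 4 h, and 822 and 855 TPM at 6 h. Neither course had a steady direction, and in uninduced cells the lowest library was at 4 h and the highest at 6 h. Its uninduced slope was -0.029 with the chase to 4 h alone. Some of these calls turned on single libraries: without uninduced replicate 1 at 4 h, TUBB2A (0.052, adjusted p = 0.0173) and TUBB3 (0.044, adjusted p = 0.0262) passed in uninduced cells, TUBB3 passed also without uninduced replicate 2 at 0.5 h (adjusted p = 0.0459), and TUBB4B passed in induced cells without induced replicate 1 at 0 h (adjusted p = 0.0282) or at 1 h (adjusted p = 0.0310).

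The composition of the beta tubulin RNA, taken as shares within each library, shifted along the chase. A constant factor per library does not change such shares, but quantile normalization can. They were taken from the deposited TPM only. TUBB4B made up 24.97 ± 0.0061% of the summed beta tubulin TPM in uninduced cells at 0 h, 22.4 ± 1.17% at 0.5 h, 20.2 ± 0.387% at 1 h, 19.2 ± 0.565% at 2 h, 17.9 ± 0.708% at 4 h and 17.9 ± 0.342% at 6 h (SD, n = 2 each). In induced cells its share was 24.7 ± 0.614% at 0 h, 22.3 ± 0.784% at 0.5 h, 21.0 ± 1.72% at 1 h, 20.0 ± 1.38% at 2 h, 18.2 ± 0.673% at 4 h and 17.0 ± 0.119% at 6 h. In each arm both 6 h libraries lay below both 0 h libraries, and most of the decline had taken place by 2 h. TUBB made up 67.5 ± 0.163% at 0 h and 75.4 ± 0.975% at 6 h in uninduced cells, and 67.8 ± 1.01% and 76.7 ± 0.406% in induced cells. The ratio of TUBB4B to TUBB was 0.370 ± 0.00099 at 0 h and 0.237 ± 0.0076 at 6 h without induction, and 0.365 ± 0.015 and 0.222 ± 0.0027 with it. These shares are a description with no test.

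The balance of alpha to beta tubulin RNA moved as well. This is not independent of the TUBB4B shift, since TUBB4B is part of the beta sum. From 0 h to 6 h TUBB rose 1.63-fold in uninduced and 1.79-fold in induced cells in the group means, and TUBB4B 1.04-fold and 1.09-fold. The alpha sum rose 1.76-fold and 1.84-fold. The ratio of summed alpha to summed beta TPM was 1.47 ± 0.0010 at 0 h and 1.77 ± 0.037 at 6 h in uninduced cells, and 1.47 ± 0.020 and 1.71 ± 0.064 in induced cells (SD, n = 2 each). The 4 libraries at 0 h lay between 1.45 and 1.48 and the 4 at 6 h between 1.66 and 1.80. Within the alpha tubulins the split was steadier. TUBA1B held 55.6 ± 1.33% of alpha TPM at 0 h and 54.4 ± 2.26% at 6 h in uninduced cells, and 54.2 ± 0.794% and 58.5 ± 2.72% in induced cells. TUBA1C held 41.0 ± 1.63% and 42.4 ± 2.47%, and 41.7 ± 1.14% and 37.9 ± 3.21%. The induced arm at 6 h was the group in which the pair lay farthest apart, and there the 2 replicates of TUBA1C also differed, at 2875 and 3522 TPM.

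**Figure D2:**
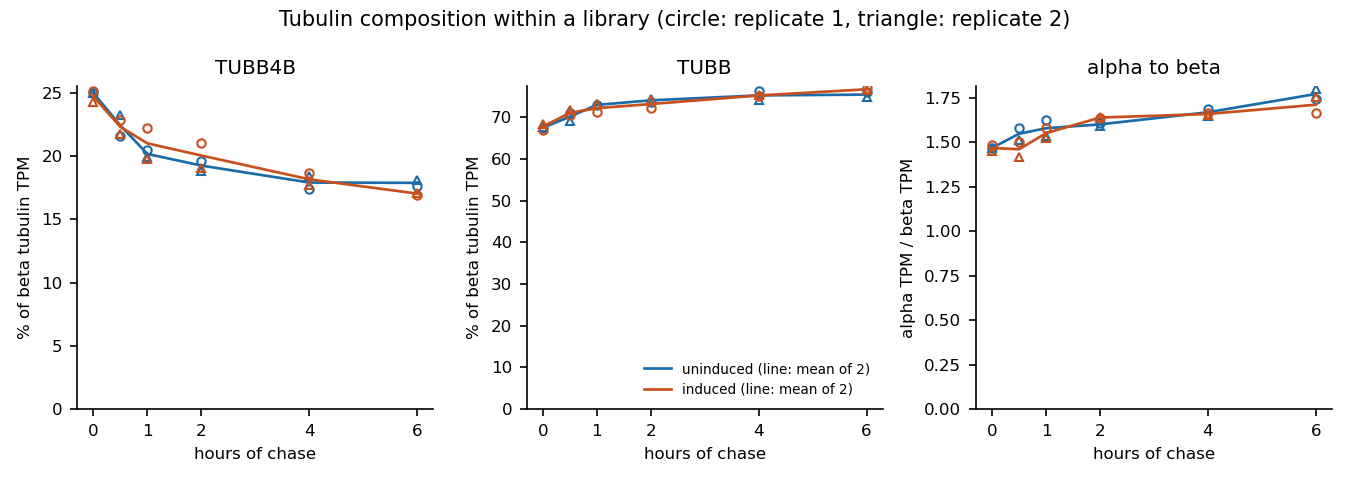
Shares within a library against hours of chase: TUBB4B and TUBB as a percentage of summed beta tubulin TPM, and the ratio of summed alpha to summed beta TPM. Circles are replicate 1, triangles replicate 2, and lines join means of 2. The TUBB4B share went from near 25% to 17.9% in uninduced and 17.0% in induced cells, while both arms ran close together.

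The next question was whether the course of tubulin RNA over the chase differed between the arms. None of the 9 members tested had a slope difference between the arms that passed the threshold, where 0.343% of all genes did, 1 higher and 45 lower in induced cells, and at an unadjusted p under 0.05 there were 1 member and 1673 genes, 12.5% of those tested. The 9 estimates were all above 0, from 0.0036 to 0.055 per hour with a median of 0.024, beside -0.0094 over all genes. That sign did not hold throughout: TUBA1A, TUBA1C and TUBA4A gave -0.025, -0.014 and -0.020 without the 2 induced replicate 2 libraries at 0 h and 0.5 h and turned negative under 1 or more of the other scalings, as did TUBB and TUBB4B under quantile normalization. Without those 2 libraries 328 genes passed in place of 46, and 0 of them were members. TUBA1B had the largest difference, 0.055 (95% interval 0.011 to 0.099, adjusted p = 0.255), followed by TUBB3 at 0.038 (-0.014 to 0.090) and TUBB at 0.036 (-0.0016 to 0.074). The widest interval was that of TUBA1A, 0.0065 (-0.11 to 0.13). A p above the threshold does not show that the courses were alike in the arms, and these intervals give the sizes that remain possible under the model.

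At the start of the chase, 0 of 9 members differed between the arms by the limma test, where 0.0298% of all genes did, and at an unadjusted p under 0.05 there were 1 member and 881 genes. The largest estimates were 0.44 for TUBA1A (adjusted p = 0.801) and -0.39 for TUBB3 (adjusted p = 0.509), and TUBA1B was at -0.18 (adjusted p = 0.836). Without the 2 induced replicate 2 libraries at 0 h and 0.5 h these were 0.30, -0.38 and -0.10 (adjusted p = 0.587, 0.321 and 0.703), and 0 members and 5 genes were called, with the lone induced library assumed to vary like the other groups. As a plain count, both induced libraries lay below both uninduced ones for 5 of 9 members at 0 h, where 10.9% of all genes did so, and for 7 of 9 at 0.5 h, where 17.1% did. The counts were 2 of 9 at 1 h (9.91% of all genes), 4 of 9 at 2 h (13.9%), 0 of 9 at 4 h (23.1%) and 4 of 9 at 6 h (28.4%). The opposite order was seen for 1, 0, 1, 1, 3 and 1 members at these times. Of all genes, 16.2%, 21.6%, 23.3%, 30.7%, 25.6% and 31.3% had that order. The times with the most members below, 0 h and 0.5 h, include the 2 induced libraries in which the 3 noncoding RNAs took a larger share. With induced replicate 1 alone, 5 of 9 members lay below both uninduced libraries at 0 h, where 14.4% of all genes did. At 0.5 h 7 of 9 did, where 23.8% of all genes did. Every member counted with both induced libraries is counted again with replicate 1 alone, so these counts could not fall. The part of the 2 libraries in the counts was not tested.

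**Figure D3:**
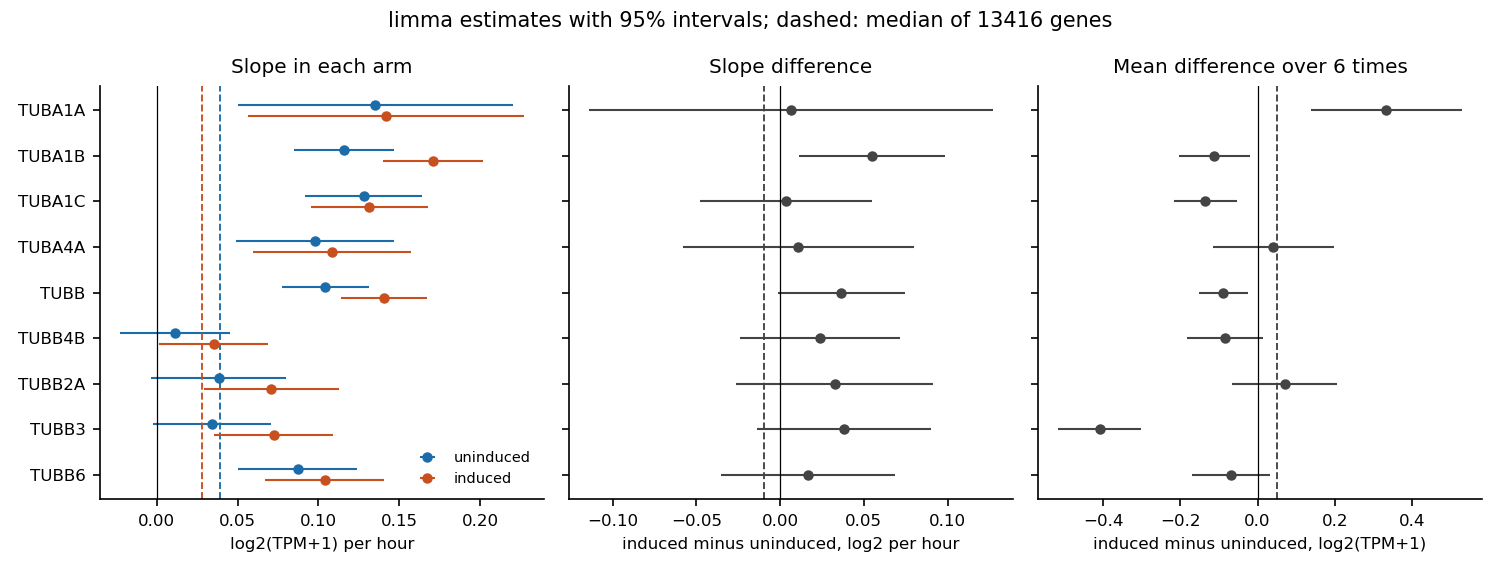
Fitted slopes in each arm, slope differences and mean differences over the 6 times for the 9 members, as points with 95% intervals, on scales of log2(TPM + 1) per hour and log2(TPM + 1). Dashed lines are medians of 13416 genes, and the solid line is 0. All slope differences lie above 0 in the deposited TPM, although TUBA1A, TUBA1C and TUBA4A turn negative without the 2 induced replicate 2 libraries at 0 h and 0.5 h, and TUBA1C, TUBB and TUBB4B under quantile normalization, while the mean differences of TUBA1A and TUBB3 lie on opposite sides of 0.

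Averaged over the 6 times, 1 member was higher and 3 were lower in induced cells, where 25.7% of all genes differed, 1922 higher and 1532 lower. TUBB3, the neuronal isotype, was lower by the largest amount, and TUBA1A was higher. In a bulk sample, fewer cells of a type and less RNA per cell cannot be told apart, nor can the transgene and the removal of doxycycline.

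TUBB3 stood in uninduced replicates 1 and 2 at 96.8 and 88.6 TPM at 0 h, 92.6 and 110 at 0.5 h, 98.9 and 91.2 at 1 h, 102 and 103 at 2 h, 87.3 and 117 at 4 h, and 107 and 117 TPM at 6 h. With induction it stood at 70.8 and 70.0 TPM at 0 h, 60.4 and 61.9 at 0.5 h, 75.0 and 68.6 at 1 h, 82.8 and 76.4 at 2 h, 80.5 and 87.7 at 4 h, and 83.5 and 94.0 TPM at 6 h. The arms did not overlap at 5 of the 6 times and overlapped at 4 h, where uninduced replicate 1 was low. The mean difference was -0.41 (SE 0.050, 95% interval -0.52 to -0.30, adjusted p = 3.05e-05), and the induced level was between 0.60 and 0.82 of the uninduced one at the 6 times. In all 36 alternatives run the call was kept, with estimates from -0.45 to -0.37. TUBB3 also made up less of the beta tubulin TPM in induced cells, 2.26 ± 0.088% against 2.70 ± 0.099% at 0 h and 1.80 ± 0.112% against 2.24 ± 0.224% at 6 h (SD, n = 2 each). Of 12 neuronal markers, SNAP25 alone reached a mean of 1 TPM, at 8.87 TPM. The defining neuronal markers RBFOX3, SYP, SYT1, MAP2 and DCX stayed under a mean of 1 TPM, and NEFL, NEFM and ELAVL4 were listed at 0 in all 24 libraries. The summed level of the 12, most of it SNAP25, was 7.17 to 10.2 TPM in uninduced and 9.16 to 13.3 TPM in induced cells, ranges that overlap. The part of neuron-like cells in the TUBB3 values was not tested.

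The table gives TUBB3 as a pair of RefSeq transcripts, and their slopes had opposite signs. In induced cells both passed the threshold, and in uninduced cells NM_006086 alone did. NM_006086, 59.3% of the gene's mean TPM, was at 50.2 ± 9.97 TPM at 0 h and 77.6 ± 21.9 at 6 h in uninduced cells, and at 34.0 ± 4.65 and 68.5 ± 0.714 TPM in induced cells (SD, n = 2 each). NM_001197181, the other 40.7%, was at 42.5 ± 4.17 and 34.2 ± 14.8 TPM, and at 36.4 ± 4.07 and 20.3 ± 8.11 TPM. In the limma fit on 21749 transcripts, NM_006086 rose in both arms, with slopes of 0.12 (adjusted p = 0.00788) and 0.19 per hour (adjusted p = 0.000109). NM_001197181 fell in induced cells, with a slope of -0.12 (adjusted p = 0.0242), and had a slope of -0.094 in uninduced cells (adjusted p = 0.0899). The mean differences between the arms were -0.42 for NM_006086 (adjusted p = 0.0243) and -0.41 for NM_001197181 (adjusted p = 0.0934). The TUBB3 level is the sum of the pair, a transcript that rose and one with a negative slope, and its own slope passed the threshold in induced cells only. RSEM assigned the reads shared by the pair, and the replicates differed by up to 75.3 against 45.0 TPM for NM_001197181 in uninduced cells at 0.5 h, so the split is less certain than the sum.

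**Figure D4:**
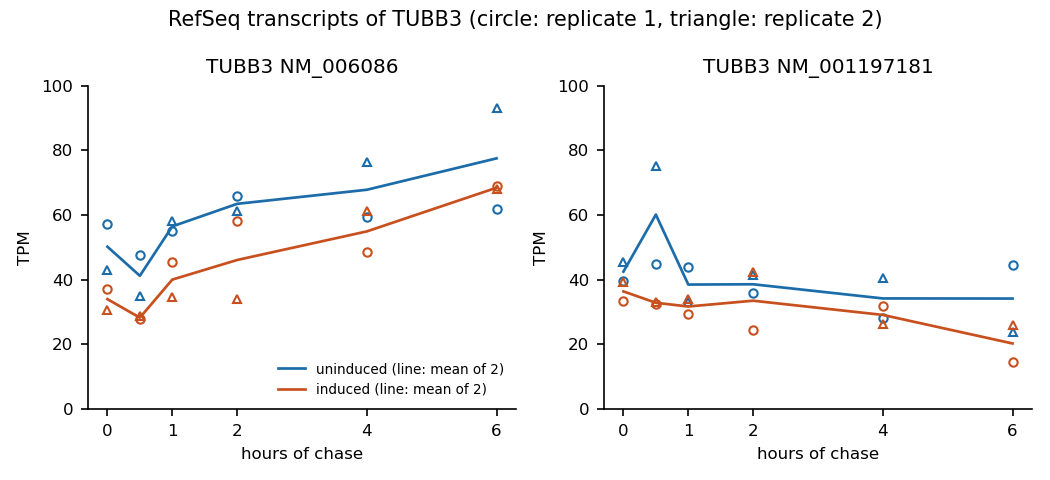
TPM of the RefSeq transcripts of TUBB3 against hours of chase, with circles for replicate 1, triangles for replicate 2 and lines through means of 2. NM_006086 climbed in both arms, to 77.6 TPM uninduced and 68.5 TPM induced at 6 h, while NM_001197181 ended at 34.2 and 20.3 TPM.

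TUBA1A, an isotype of developing neurons, ran the other way at a low level. Its uninduced replicates 1 and 2 were at 14.1 and 11.4 TPM at 0 h, 23.3 and 17.4 at 0.5 h, 26.7 and 21.7 at 1 h, 20.8 and 26.3 at 2 h, 23.3 and 25.1 at 4 h, and 32.5 and 28.4 TPM at 6 h. Its induced replicates were at 15.9 and 19.3 TPM at 0 h, 25.6 and 16.9 at 0.5 h, 32.4 and 24.7 at 1 h, 43.0 and 29.4 at 2 h, 29.8 and 40.2 at 4 h, and 35.0 and 35.7 TPM at 6 h. The induced libraries lay above the uninduced ones at 4 of 6 times and overlapped them at 0.5 h and 1 h, and the widest gap between replicates was in the induced arm at 2 h. The mean difference was 0.33 (SE 0.092, adjusted p = 0.0147). The call was kept in the 36 alternatives that test the gene on its own. With transcripts in place of genes it rests on NM_006009, 87.7% of the gene's mean TPM (0.40, adjusted p = 0.0395). NM_001270399, at a mean of 2.68 TPM, had a mean difference of -0.12 in that limma fit (adjusted p = 0.819). The 3 TUBA1 genes summed also gave -0.12, a value with no test, since TUBA1B and TUBA1C hold nearly all of the sum.

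TUBA1C was lower in induced cells, with a mean difference of -0.14 (SE 0.039, adjusted p = 0.0187), a call lost under quantile normalization (-0.048, adjusted p = 0.381) and without the filter on low values (adjusted p = 0.0623). TUBB was lower with a mean difference of -0.088 (SE 0.030, adjusted p = 0.0400), a call kept in only 13 of 36 alternatives, lost on leaving out any of 17 single libraries and turned to 0.016 under quantile normalization. TUBA1B (-0.11, adjusted p = 0.0670), TUBB4B (-0.084), TUBB6 (-0.068), TUBA4A (0.041) and TUBB2A (0.070) did not pass. TUBA1B passed on leaving out induced replicate 1 at 0.5 h (adjusted p = 0.0299), 1 h (0.0384) or 4 h (0.0464), or uninduced replicate 2 at 1 h (0.0435). These differences are small beside those of TUBB3 and TUBA1A, and the median over all genes was 0.051.

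Other alpha and beta tubulin genes were scarce. Of 11 such genes with values, 3 passed the filter, and TUBB1, the pseudogene TUBA3FP and TUBA8 had means of 5.56, 5.61 and 4.31 TPM. TUBB1 and TUBA3FP fell in uninduced cells, with slopes of -0.15 (adjusted p = 0.000437) and -0.17 (adjusted p = 0.000485), the reverse of the abundant isotypes. Both also fell in induced cells, with slopes of -0.10 and -0.23, and TUBA8 rose there (0.12, adjusted p = 0.0140). The induced call of TUBB1 was lost under quantile normalization (-0.065, adjusted p = 0.0678), and that of TUBA8 without the 3 noncoding RNAs. Over protein-coding transcripts 2 of these genes were kept, of which 0 rose and 1 fell in induced cells. Over the 6 times TUBB1 was higher in induced cells by 0.37 (adjusted p = 0.00902) and TUBA3FP by 0.28 (adjusted p = 0.0384). Levels this low leave single values imprecise: TUBB1 had 6.04 ± 0.672 TPM at the start and 3.14 ± 0.919 TPM after 6 h in uninduced cells, and 6.56 ± 2.09 and 4.96 ± 0.431 TPM in induced cells (SD, n = 2 each).

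The genes that fold and assemble tubulin, with some related genes, were read against the same background. In it 42.8% of all genes rose and 22.3% fell in uninduced cells, and 41.6% rose and 29% fell in induced cells. The list of 17 held prefoldin subunits, which hold nascent tubulin, and the tubulin cofactors, which join alpha to beta. It also held ARL2, ARL2BP, PDCD5, TBCCD1, TBCEL and UXT, which are neither. Of the 17, 11 rose and 1 fell in uninduced cells, with a median slope of 0.094 beside 0.039 over all genes. In induced cells 12 rose and 1 fell. The rising genes in both arms include ARL2BP, PDCD5 and UXT. Under the 4 other scalings, in which 30.3% to 35% of all genes tested rose in uninduced and 30.8% to 40.6% in induced cells, 7 to 10 of the list rose and 2 to 5 fell in uninduced cells, 8 to 10 rose and 3 or 4 fell in induced cells, and the list's median stayed above 0 in both. Of all genes, 23.2% to 32.3% fell in uninduced and 27.8% to 38.2% in induced cells under those scalings. PFDN5, a prefoldin subunit, rose from 163 to 345 TPM in the group means of uninduced cells (slope 0.17, adjusted p = 1.82e-07), and UXT, a prefoldin-like protein, had a slope of 0.14 (adjusted p = 1.41e-07). TBCC, the cofactor that triggers release of the finished dimer, fell from 199 ± 9.09 to 8.26 ± 1.47 TPM in uninduced cells and from 185 ± 3.10 to 5.52 ± 0.311 TPM in induced cells (SD, n = 2 each), with slopes of -0.79 (adjusted p = 1.83e-14) and -0.86. Its slope difference was -0.073 (adjusted p = 0.619), and it was lower in induced cells over the 6 times, with a mean difference of -0.45 (adjusted p = 0.000543). The slope difference with the smallest p on that list was 0.060 for PFDN5 (adjusted p = 0.404).

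The autoregulation factors were low. TTC5, which reads the nascent tubulin chain, rose from 6.96 ± 1.10 to 11.8 ± 0.361 TPM in uninduced cells (SD, n = 2; slope 0.12, adjusted p = 0.00123) and with a slope of 0.14 in induced cells. SCAPER, with a mean of 11.7 TPM, had slopes of 0.026 and -0.0012, neither past the threshold, although the induced slope was -0.057 over protein-coding transcripts (adjusted p = 0.0292). Its slope difference, -0.027, had the smaller p of the 2 factors (adjusted p = 0.796).

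Among 22 genes for gamma, delta and epsilon tubulin, the gamma-tubulin ring complex and augmin, which start and branch microtubules, 12 rose and 2 fell in uninduced cells, beside 42.8% and 22.3% of all genes, and 13 rose and 3 fell in induced cells, beside 41.6% and 29%. Under the 4 other scalings 8 to 11 rose and 5 to 7 fell in uninduced cells, and 9 to 12 rose and 4 to 7 fell in induced cells. Of all genes, 30.3% to 35% rose and 23.2% to 32.3% fell in uninduced cells under those scalings. In induced cells 30.8% to 40.6% of all genes rose and 27.8% to 38.2% fell. TUBGCP3, a core subunit of the ring complex, rose from 36.3 ± 4.24 to 127 ± 2.56 TPM in uninduced cells (SD, n = 2; slope 0.33, adjusted p = 1.89e-10), and TUBGCP2 had a slope of 0.17 (adjusted p = 1.60e-07). The augmin subunits HAUS3 (-0.27, adjusted p = 2.18e-09) and HAUS5 (-0.11, adjusted p = 0.00704) fell. TUBD1, delta tubulin, had the smallest p for a slope difference, -0.082 (adjusted p = 0.213), which passed over protein-coding transcripts alone (-0.096, adjusted p = 0.0416).

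Of 13 tubulin-modifying enzymes that passed the filter, from 25 listed, 5 rose and 1 fell in uninduced cells, a share of rising genes near the 42.8% of all genes, and 7 rose and 1 fell in induced cells, where 41.6% rose. Under the other scalings, which kept 13 or 14 of them, 2 to 5 rose and 1 to 3 fell in uninduced cells, and 5 to 9 rose and 1 to 3 fell in induced cells. Of all genes, 30.3% to 35% rose and 23.2% to 32.3% fell in uninduced cells under those scalings. In induced cells 30.8% to 40.6% of all genes rose and 27.8% to 38.2% fell. NAA50, an acetyltransferase subunit, had a slope of 0.26 (adjusted p = 2.73e-09) and TTL, which adds the final tyrosine to alpha tubulin, of 0.15 (adjusted p = 4.65e-08). TTLL11, a polyglutamylase, fell from 15.2 ± 0.912 to 5.53 ± 0.665 TPM (SD, n = 2; slope -0.23, adjusted p = 5.87e-09), and its slope difference of -0.081 had the smallest p of the list (adjusted p = 0.263). Of 26 microtubule-associated proteins and regulators, from 34 listed, 14 rose and 1 fell in uninduced cells and 16 rose and 1 fell in induced cells, beside the same backgrounds. Under the other scalings, which kept 26 or 27 of them, 7 or 8 rose and 2 or 3 fell in uninduced cells, a share of rising genes near or below the 30.3% to 35% of all genes. In induced cells 10 to 14 of them rose and 4 to 7 fell, where 30.8% to 40.6% of all genes rose and 27.8% to 38.2% fell. MAPRE1, which tracks growing plus ends, rose from 106 ± 15.3 to 269 ± 2.33 TPM (SD, n = 2; slope 0.22, adjusted p = 9.26e-08) and CAMSAP2, which binds minus ends, had a slope of 0.18 (adjusted p = 2.40e-06). FIGN, a microtubule-severing enzyme, fell with a slope of -0.18 (adjusted p = 3.85e-07), and KATNA1, the katanin catalytic subunit, had the smallest p for a slope difference, -0.11 (adjusted p = 0.244). In these lists 0 genes passed for the slope difference in the deposited TPM, as for the tubulins, and the numbers at an unadjusted p under 0.05 were 0 of 17 for folding, 1 of 22 for gamma tubulin and its partners, 2 of 13 for the enzymes and 3 of 26 for the associated proteins. Of all genes tested, 0.343% passed and 12.5% had an unadjusted p under 0.05.

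The summed alpha and beta tubulins followed a course over the 12 groups that many genes shared. By Pearson's r of log2(TPM + 1) over the 12 group means, among 10370 genes that averaged 5 TPM or more and are no tubulin gene, the most alike to the alpha sum were RPL18, a ribosomal protein (0.994), SNRPB, a spliceosome core protein (0.992), and GAPDH, a glycolytic enzyme (0.991). For the beta sum they were RPL18 (0.992), NDUFB7, a subunit of respiratory complex I (0.991), and SNRPB (0.990). In all, 454 genes had an r above 0.95 to the alpha sum and 348 to the beta sum, and the medians over genes were 0.627 and 0.611. The alpha sum's own members ranged from 0.995 for TUBA1B to 0.718 for TUBA1A, and TUBB, a beta tubulin, reached 0.995 with it, whereas TUBB4B reached 0.621. The points share libraries and a fixed total, so these values are a description. GAPDH illustrates the course, with a group mean of 3191 ± 73.8 TPM at the start and 6920 ± 18.7 TPM after 6 h without induction (SD, n = 2).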

How the data were processed

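Bromouridine-labelled cytoplasmic RNA of 24 U2OS libraries was analysed, in 12 groups of arm and chase time taken from the labels. The authors deposited TPM for each RefSeq transcript, 48009 in all; the submitters' processing notes name RSEM 1.3.0, Bowtie2, Trim Galore and hg19, with no role or order. Strandedness and filters are not given in the sources used here. The depth is unknown, so no counting error could be given, and 2 libraries per group limit the precision.

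TPM was summed per gene symbol (3 transcripts had none), giving 25341 genes. The 13416 genes that averaged 1 TPM or more held at least 99.8% of any library. In limma 3.58.1 (R 4.3.3), run on log2(TPM + 1) with a trend in the variances and no replicate term, 1 model fitted a straight line on hours in each arm (20 residual degrees of freedom) and gave the slopes and their difference. Another gave each group a mean (12 residual degrees of freedom), for the differences at 0 h and over the 6 times. Tests were two-sided, adjusted by the Benjamini-Hochberg method over all genes kept, with a threshold of 0.05, and intervals are 95%. The test of the slope difference was run on simulated data with planted differences larger than any member's estimate, so that run does not cover differences of the members' size. Sums, shares and likeness were described, not tested. Alternatives were other pseudocounts, filters, scalings, transcripts, the replicate number as a block, variances without a trend, shorter chases, libraries left out and paralogs summed. Plots used matplotlib 3.10.9.

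The named genes were all members and, in each pathway list, for the uninduced slope and the slope difference, up to 2 genes past the threshold with the smallest p in each direction, or the gene with the smallest p where none passed. For likeness they were the 3 highest correlations. The members, lists and tests were chosen with earlier results of these data known. Promoter windows came from RefSeq (GRCh38.p14). No genome, hg19 annotation or protein sequence was used here.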

Additional observations from a re-analysis of the deposited data

How the results depend on the processing

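The uninduced slopes called 6 members and the induced slopes 8. With quantile normalization 4 members were called in induced cells, where 40.6% of all genes rose and 27.8% fell. Over protein-coding transcripts 5 members were called, where 32.2% of all genes rose and 36.2% fell. With the chase to 2 h 4 members were called, when 3008 and 3826 genes were called in place of 8739 and 9480. Members called for the mean difference, 4, became 2 without the filter, 2 with quantile normalization and 7 with median-of-ratios scaling, and all genes called, 3454, became 1811 transcripts. With quantile normalization 1 member was higher and 1 lower, where 14.9% of all genes were higher and 15.7% lower. With median-of-ratios scaling 1 member was higher and 6 lower, where 14.2% of all genes were higher and 16.8% lower. No member was called for the slope difference or at 0 h in any alternative. Over all genes, the slope-difference count of 46 became 88 and 25 with pseudocounts of 0.1 and 5, 30 without the filter, 84 over genes averaging 5 TPM or more, 179 with quantile normalization, 328 without the 3 noncoding RNAs, 400 over protein-coding transcripts, 7 with transcripts, 99 with the replicate block, 0 with the chase to 4 h or to 2 h and 328 without the induced replicate 2 libraries at 0 h and 0.5 h, an alternative chosen after seeing the data. The 0 h count of 4 became 7, 8 and 10 under those scalings, 11 with the replicate block and 2 without a variance trend. Leaving out libraries gave 5 to 8 and 5 to 9 members for the slopes and 3 to 5 for the mean difference, and over all genes 6707 to 8844, 7928 to 9528, 0 to 164, 0 to 5 and 2625 to 3983.

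Signs turned as follows. With quantile normalization the uninduced slopes were -0.045 for TUBB2A and -0.048 for TUBB3 (adjusted p = 0.0406), the slope differences -0.035 for TUBA1C, -0.023 for TUBB and -0.00054 for TUBB4B, the 0 h difference 0.0030 for TUBA1B and the mean difference 0.016 for TUBB. With median-of-ratios scaling the uninduced slopes were -0.010 for TUBB2A, -0.015 for TUBB3 and -0.038 for TUBB4B, and the induced slope -0.0017 for TUBB4B. Without the 3 noncoding RNAs they were -0.00033, -0.0045 and -0.028, with -0.014 for TUBB4B in induced cells, and the slope differences -0.0034 for TUBA1A and -0.0062 for TUBA1C. Over protein-coding transcripts they were -0.0068, -0.011 and -0.034 (adjusted p = 0.0474 for TUBB4B), with -0.024 for TUBB4B in induced cells, and the slope differences -0.0071 for TUBA1A, -0.010 for TUBA1C and -0.0025 for TUBA4A. The TUBB4B uninduced slope was -0.029 to 4 h and -0.047 to 2 h. Without the induced replicate 2 libraries at 0 h and 0.5 h the slope differences were -0.025 for TUBA1A, -0.014 for TUBA1C and -0.020 for TUBA4A. Paralogs summed gave -0.15 at 0 h and -0.12 over the 6 times for TUBA1A. Leaving out libraries, slope differences ranged from -0.016 to 0.036 for TUBA1A, -0.018 to 0.032 for TUBA1C and -0.0053 to 0.027 for TUBA4A, the TUBA4A mean difference from -0.0040 to 0.087 and the TUBB4B uninduced slope from -0.00012 to 0.018. The cause was not tested.

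Same-numbered libraries of the arms had correlated deviations of 0.020 to 0.156 over the 6 times, not all above 0.1, so no replicate term was used, although the ratio of TUBA1C to TUBA1B was higher in replicate 2 than in replicate 1 in 12 of 12 groups. With the replicate block TUBB4B passed for the induced slope (adjusted p = 0.0440) and TUBA1B for the mean difference (adjusted p = 0.0107).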
